A study of Homo sapiens with 54 samples.

Results

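Brf1 and POLR3A were compared in T47D cells, an established human breast cancer line that expresses estrogen and progesterone receptors, after 1 h with ethanol vehicle. Chromatin immunoprecipitation and sequencing (ChIP-seq) was done with 3 libraries for each antibody, and each antibody is represented by 1 deposited list of enriched regions. The members are the rows of both lists on chromosomes 1 to 22 and X, 688 POLR3A regions and 370 Brf1 regions. Counting each shared place once through its POLR3A region, this makes 713 regions of 518471 rows in the 16 lists of the series. A region had both proteins when rows of the lists shared at least 1 bp. POLR3A was found with Brf1 at 348 regions and alone at 340, while Brf1 was found with POLR3A at 345 regions and alone at 25. The 2 counts of shared regions differ because 3 Brf1 regions each covered 2 POLR3A regions. Lists of the same cells for H3K27Ac (acetylated lysine 27 of histone H3, found at active promoters and enhancers), the progesterone receptor (PR), the repressor Maf1 and the subunits POLR3C, POLR3G and POLR3GL were used as further readouts. The Brf1, POLR3A, PR and Maf1 lists from cells given the synthetic progestin R5020 for 1 h were used in the same way; its dose is not given in the sources used here.

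RNA polymerase III makes short non-coding RNAs, and POLR3A is its largest subunit. The polymerase is placed at the start of its genes by TFIIIB, a complex of TBP, BDP1 and either BRF1 or BRF2. At type 1 promoters (5S ribosomal RNA) and type 2 promoters (tRNA, 7SL, vault and BC200 RNA), control elements lie inside the gene, are bound by TFIIIA or TFIIIC, and lead to a TFIIIB that holds BRF1. The internal elements of type 2 genes are the A box and the B box. Type 3 promoters (U6, U6atac, 7SK, Y RNAs, the RNase P and RNase MRP RNAs, and the selenocysteine tRNA) lie upstream of the gene, carry a TATA box and a proximal element bound by SNAPc, and use a TFIIIB with BRF2. The comparison asks how far the Brf1 list follows these promoter types in breast cancer cells that have not been given hormone.

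Sequences of 7 genes show what the promoter types look like at regions with and without Brf1. They were read from RefSeq promoter windows of GRCh38.p14, in which these genes happen to lie beside another gene's start. RPPH1 (the RNA of RNase P) and RMRP (the RNA of RNase MRP) represent type 3 promoters that had POLR3A and no Brf1. Bases upstream of the gene have negative numbers counted back from its first base, and the direction of RPPH1, RMRP and VTRNA1-1 is taken from background knowledge, since the gene table gives no strand.
RPPH1, chr14:20343385-20343541, minus strand: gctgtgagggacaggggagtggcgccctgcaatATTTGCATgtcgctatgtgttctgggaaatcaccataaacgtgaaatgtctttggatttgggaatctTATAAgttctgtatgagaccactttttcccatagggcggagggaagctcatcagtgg
RMRP, chr9:35658042-35658249, minus strand: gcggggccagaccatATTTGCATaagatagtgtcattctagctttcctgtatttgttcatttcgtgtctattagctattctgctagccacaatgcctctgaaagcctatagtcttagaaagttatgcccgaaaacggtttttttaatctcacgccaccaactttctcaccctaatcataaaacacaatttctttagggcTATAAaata
VTRNA1-1, chr5:140711216-140711325, plus strand: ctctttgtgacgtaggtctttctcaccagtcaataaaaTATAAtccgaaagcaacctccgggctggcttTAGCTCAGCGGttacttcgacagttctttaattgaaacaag
In RPPH1 and RMRP the capitals mark the octamer ATTTGCAT, the letters of an OCT1 site, and the letters TATAA. The octamer lay at -97 to -90 in RPPH1 and at -215 to -208 in RMRP, and TATAA at -30 to -26 and at -31 to -27. VTRNA1-1, a vault RNA gene with both proteins, also had TATAA, at -22 to -18, but its other capitals mark an A box inside the gene at positions 10 to 20. The octamer was not searched at VTRNA1-1, nor the A box at RPPH1 and RMRP, so the marked letters do not compare these genes. The sequence of VTRNA1-1 ends at base 50 of the gene, and that of RMRP at -23. Over 35116 promoter windows of the table, searched on both strands, 1.77% held the octamer, 20.4% held TATAA, 21.7% an A box and 7.48% the B box core GTTCNANNC.

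Pairs of tRNA genes show the internal elements, with the A box and the B box core in capitals, 40 bases before the gene and 25 after it. TRP-TGG3-2 and TRP-TGG3-5 are 2 copies of the same proline tRNA gene, of which the first had both proteins and the second POLR3A alone. TRN-GTT6-1 (both) and TRN-GTT4-1 (POLR3A alone) are asparagine tRNA genes that differ in few bases.
TRP-TGG3-2, chr14:20683976-20684112, plus strand: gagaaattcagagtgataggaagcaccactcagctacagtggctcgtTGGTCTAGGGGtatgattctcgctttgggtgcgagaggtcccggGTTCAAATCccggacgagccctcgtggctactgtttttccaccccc
TRP-TGG3-5, chr16:3188054-3188190, plus strand: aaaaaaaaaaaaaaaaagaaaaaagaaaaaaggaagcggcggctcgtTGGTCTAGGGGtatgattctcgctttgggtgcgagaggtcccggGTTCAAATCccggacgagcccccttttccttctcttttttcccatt
TRN-GTT6-1, chr1:143735895-143736033, minus strand: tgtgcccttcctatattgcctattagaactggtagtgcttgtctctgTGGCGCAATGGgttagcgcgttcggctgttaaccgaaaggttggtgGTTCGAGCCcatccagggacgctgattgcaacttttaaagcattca
TRN-GTT4-1, chr1:16889637-16889775, plus strand: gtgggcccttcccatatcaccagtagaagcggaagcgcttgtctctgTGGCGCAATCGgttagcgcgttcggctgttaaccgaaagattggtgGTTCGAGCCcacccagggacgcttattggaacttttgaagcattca
The 72 bases of the proline genes were identical, A and B boxes included, while 13 of 40 bases before and 9 of 25 after the gene were the same. The first run of at least 4 T after the gene, the letters at which polymerase III ends transcription, began at base 13 after TRP-TGG3-2 and at base 3 after TRP-TGG3-5. From TRN-GTT6-1 to TRN-GTT4-1, counted from the first base of the gene, the 74 bases differed by G17C, which lies in the A box, G47A and T65C. In their flanks 21 of 40 bases before and 22 of 25 after the gene were the same. The 14 tRNA genes that lie whole in such windows all had the B box core, and 12 had the A box letters; 10 of the 14 had both proteins and 4 had POLR3A alone.

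Brf1 lay at all POLR3A regions of type 1 genes and at most of type 2 genes, and was missing from all but 1 of the type 3 genes. Over all POLR3A regions the share with Brf1 was 50.6% (95% Wilson interval 46.9 to 54.3), the level against which each class is read. All 17 regions of 5S ribosomal RNA genes had Brf1 (lower limit 81.6%), and so had 7 of 7 regions at 7SL, vault and BC200 RNA genes (lower limit 64.6%). Among tRNA regions 243 of 303 had Brf1 (80.2%, 75.3 to 84.3). Of 14 type 3 regions 1 had Brf1 (7.14%, 1.27 to 31.5), and of 287 regions without a listed polymerase III gene 55 had it (19.2%, 15.0 to 24.1). All type 2 regions (250 of 310, 80.6%) exceeded type 3 regions by 73.5 percentage points (Newcombe interval 48.7 to 80.6). The intervals cover counting error of regions only, neighbouring genes are not independent, and with 1 list for each antibody there is no replicate error and no p-value.

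**Figure D1:**
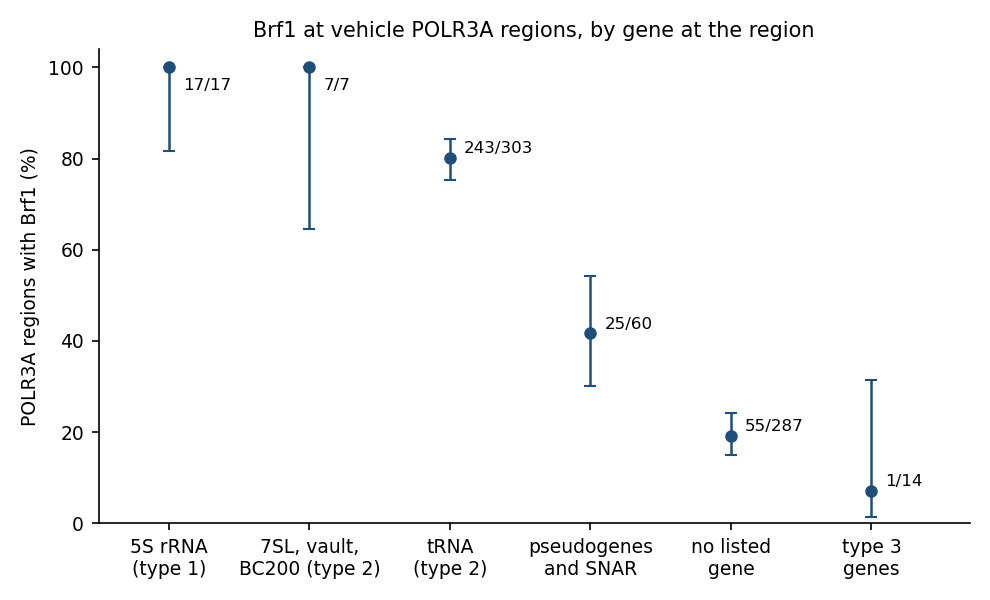
Share of vehicle POLR3A regions that overlap a Brf1 region (%), by the gene within 200 bp of the region. Points are shares, bars are 95% Wilson intervals, and the numbers beside them give regions with Brf1 of all regions; the 5S, 7SL, vault and BC200 regions are at 100%, and type 3 regions at 7.14%.

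Type 3 genes lacked Brf1 at POLR3A values as high as those of genes with Brf1. The values are fold enrichments, the authors' ratio of signal at the summit of a region over the background of the peak caller, so they describe and rank regions within 1 list. The POLR3A fold of type 3 regions ran from 24.5 to 57.6 (median 48.3), above the median of tRNA regions with Brf1 (41.1). At or above a POLR3A fold of 24.5, the lowest of type 3, Brf1 was present at 209 of 210 type 2 regions (99.5%, 97.4 to 99.9) and at 1 of 14 type 3 regions, a difference of 92.4 points (68.0 to 98.3). The 1 type 2 region without Brf1 in that range was the asparagine tRNA gene TRN-GTT8-1.

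The U6 genes, whose RNA forms the catalytic core of the spliceosome, had POLR3A folds of 26.8 at RNU6-7, 37.6 at RNU6-8, 39.7 at RNU6-1, 54.5 at RNU6-2 and 57.2 at RNU6-9, and no Brf1 region. RNU6ATAC, the U6 counterpart of the minor spliceosome, had 32.5. RN7SK, the RNA that holds the elongation factor P-TEFb inactive, had 49.8. RMRP had 56.3, and RPPH1 had 24.5, the lowest of the class. The Y RNA genes, whose RNAs bind the Ro60 protein, lie side by side on chromosome 7 and had 57.2 at RNY3, 57.4 at RNY4, 57.6 at RNY1 and 46.8 at RNY5. The nearest Brf1 region was at least 265760 bp away from each of these 13 genes. H3K27Ac was present at 13 of the 13 regions, against 42% of all POLR3A regions, and POLR3G, a subunit that replaces POLR3GL in one form of the polymerase, at 12 of 13, against 42.3%. The vehicle POLR3G list is long, with 58423 regions. The vehicle POLR3GL list of 1104 regions met 0 of the 13 (Wilson upper limit 22.8%) and 0% of the 688 POLR3A regions, so the shares of these subunits cannot be compared directly.

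The exception was TRU-TCA1-1 (chr19:45478601-45478687), the selenocysteine tRNA gene, which is a tRNA gene with a type 3 promoter. Its POLR3A region had a fold of 45.0 (percentile 82.7 of the POLR3A list), and its Brf1 region had a fold of 6.14 (percentile 23.2 of the Brf1 list). This was the widest gap in rank of any region with both proteins. The Brf1 region was 228 bp wide against 638 bp for POLR3A, and the summits lay 11 bp apart. With R5020 the gene again had a Brf1 region, with a fold of 15.1. RNU6-1 was the only other type 3 gene with Brf1 in the R5020 list, with a fold of 9.23.

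The other type 2 genes carried Brf1 at quite different levels. RN7SL1 and RN7SL2 encode 7SL, the RNA of the signal recognition particle; RN7SL1 had a POLR3A fold of 45.2 and a Brf1 fold of 23.8, whereas RN7SL2 had 19.5 and 33.0. RN7SL3 had 15.6 and 5.56. The 7SL genes are near-identical copies, and how reads that fit several copies were treated is not given in the sources used here, so the folds of single copies are uncertain. The vault RNA genes had POLR3A folds of 48.0, 41.2 and 58.0 and Brf1 folds of 20.5, 32.4 and 36.3 at VTRNA1-1, VTRNA1-2 and VTRNA1-3. VTRNA2-1 had neither protein. BCYRN1, the gene of the BC200 RNA, had 35.9 for POLR3A and 9.62 for Brf1. RN7SL2 was the only gene in this group whose Brf1 rank lay above its POLR3A rank (percentiles 74.9 and 60.5).

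The 5S ribosomal RNA genes form 1 array of near-identical repeats on chromosome 1, and the folds of single copies are therefore uncertain. They had low and even values, with POLR3A folds from 6.75 at RNA5S6 to 10.9 at RNA5S16 and Brf1 folds from 5.50 at RNA5S15 to 8.60 at RNA5S7. At POLR3A folds above 5 and up to 10, 16 of 16 5S regions had Brf1, whereas 7 of 32 tRNA regions did. Regions of similar fold were not of similar strength by other measures. The 5S regions had a median POLR3A fold of 8.74, a median -log10 q-value of 166 and a median width of 934 bp. All tRNA regions without Brf1 had medians of 8.14, 27.9 and 260.5 bp. All 17 also carried H3K27Ac and POLR3G, and 16 carried POLR3C (16.7% of all POLR3A regions).

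**Figure D2:**
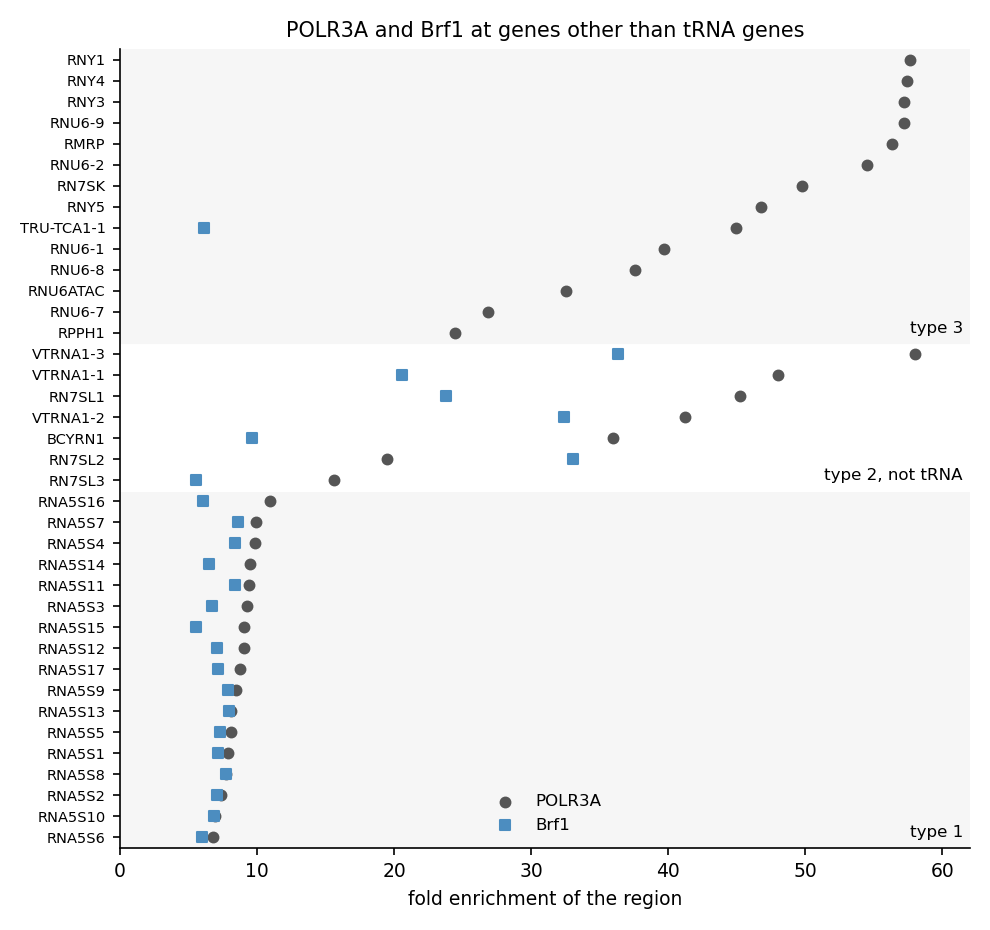
Fold enrichment of the POLR3A region (circles) and the Brf1 region (squares) at each 5S, 7SL, vault, BC200 and type 3 gene with POLR3A, on a linear axis. Type 3 genes lie between 24.5 and 57.6 for POLR3A and have no square except TRU-TCA1-1 at 6.14, while 5S genes lie at or below 10.9 for both.

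At tRNA genes the presence of Brf1 followed the strength of POLR3A. Regions with Brf1 had a median POLR3A fold of 41.1 (5.60 to 58.0) and those without 8.14 (2.22 to 28.4), so the groups overlapped between 5.60 and 28.4. Their median widths were 712 and 260.5 bp. Brf1 was present at 0 of 16 tRNA regions with a POLR3A fold up to 5, at 7 of 32 above 5 and up to 10, at 22 of 38 above 10 and up to 20, and at 33 of 36 above 20 and up to 30. Above 30 it was present at 181 of 181 regions. Regions without a listed gene showed the same order, with 11 of 150, 12 of 87, 16 of 30 and 6 of 9 in the same bins, then 10 of 11 above 30. A Brf1 signal under the caller's threshold and an absence of Brf1 cannot be told apart in such lists. Over the 238 tRNA regions where 1 Brf1 region met 1 POLR3A region, the folds had a Spearman correlation of 0.75, a description across regions that share the same libraries.

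**Figure D3:**
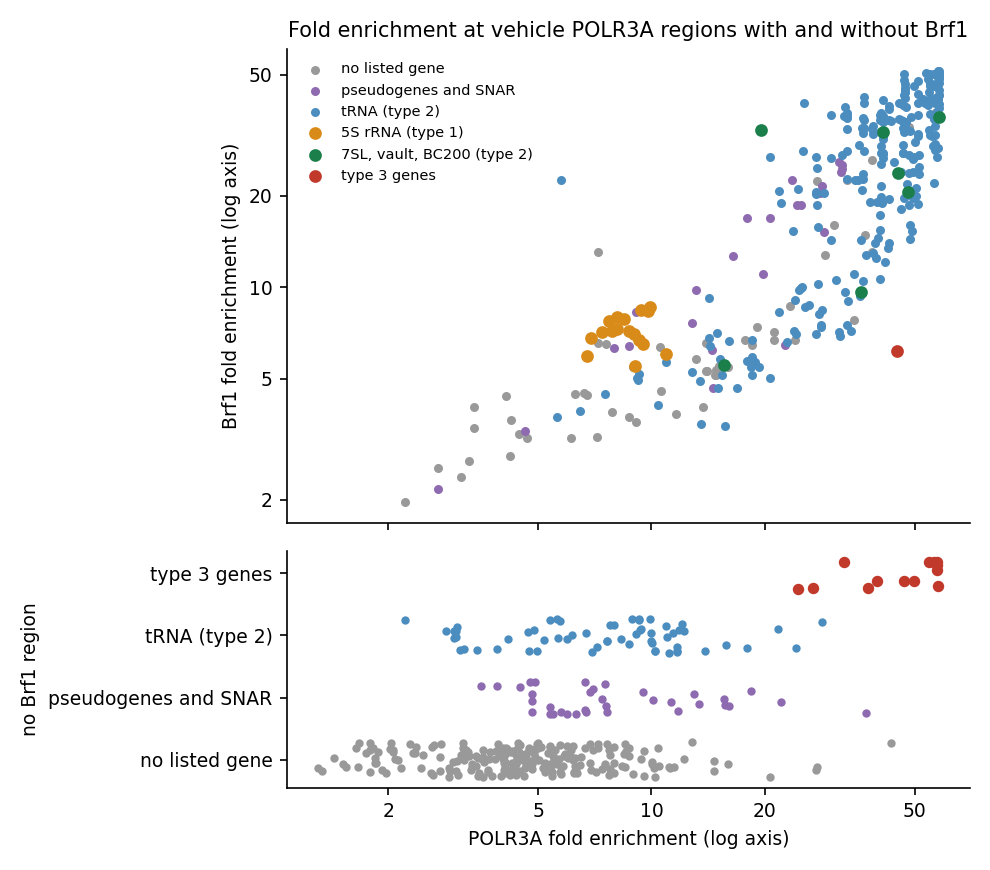
Upper panel: POLR3A against Brf1 fold enrichment for the 348 POLR3A regions with Brf1, both on log axes and coloured by the gene at the region. Lower panel: POLR3A fold of the 340 regions without Brf1; the 13 type 3 genes lie at 24.5 to 57.6, whereas the tRNA regions run from 2.22 to 28.4 (points are spread vertically for legibility).

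**Figure D4:**
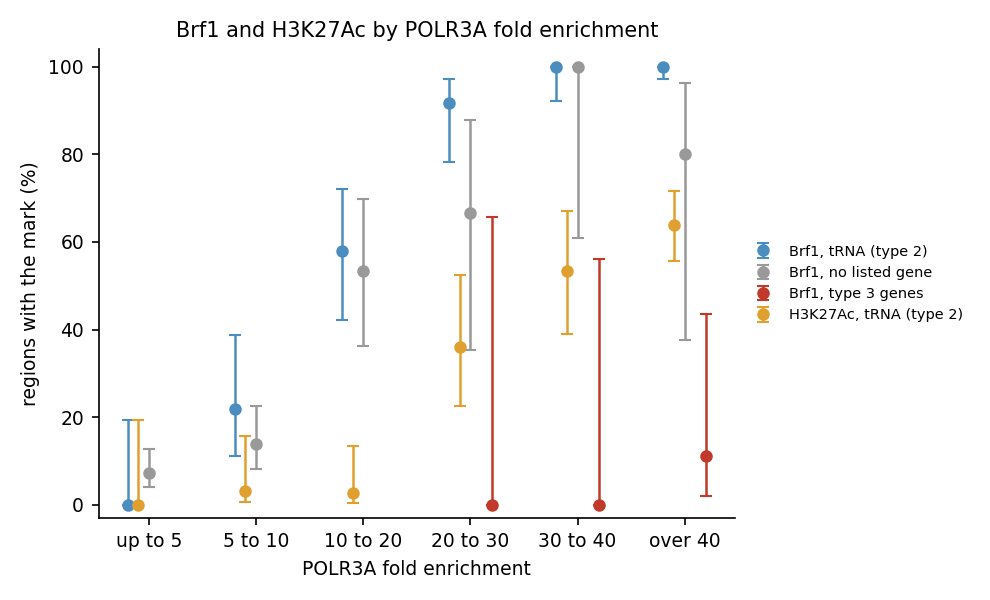
Share of regions (%) with Brf1 by POLR3A fold, for tRNA regions, regions without a listed gene and type 3 genes, and share of tRNA regions with H3K27Ac; bars are 95% Wilson intervals. The tRNA share of Brf1 rises from 0 of 16 to 136 of 136, that of H3K27Ac from 0 of 16 to 87 of 136, and type 3 stays at 0 of 2, 0 of 3 and 1 of 9.

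The tRNA regions of highest POLR3A fold without Brf1 were TRN-GTT8-1 (28.4), TRP-AGG2-3 (24.3), TRL-TAG2-1 (21.7), TRN-GTT7-1 (18.0) and TRI-TAT3-1 (15.8). All of these except TRN-GTT7-1 had a Brf1 region in the R5020 list. The region counted for TRN-GTT7-1 lies beside the gene without overlapping it, and its summit is 204.5 bp from the centre of the gene. At the other end, the lowest POLR3A folds with Brf1 were mostly those of glutamate genes in a tandem repeat on chromosome 1, with 5.60 for POLR3A and 3.75 for Brf1 at TRE-CTC1-3, 6.44 and 3.92 at TRE-CTC1-2, 7.52 and 4.47 at TRE-CTC1-5, and 9.16 and 5.03 at TRE-CTC1-4. TRL-CAA6-1 was also among them, with 5.74 and 22.6, but its Brf1 region covers a neighbouring POLR3A region as well. The highest Brf1 folds were at TRR-TCT1-1 and TRL-AAG2-4, both 51.5, with POLR3A folds of 57.8 and 58.0. Regions that hold TRG-TCC1-1 with TRV-CAC3-1, TRD-GTC2-9 with TRF-GAA1-4, and TRL-CAA4-1 with TRE-CTC2-1 followed, at 50.7, 50.4 and 50.4. TRG-CCC2-1 had the same Brf1 fold as the last of these, 50.4, with a POLR3A fold of 58.0.

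Among regions with both proteins, those whose Brf1 rank lay farthest below their POLR3A rank were, after TRU-TCA1-1, single tRNA genes with Brf1 folds from 3.51 to 5.02. TRC-GCA14-1 had 15.7 for POLR3A and 3.51 for Brf1, TRT-AGT3-1 13.5 and 3.55, TRG-CCC1-2 20.6 and 5.02, and TRC-GCA21-1 16.9 and 4.65. Those with Brf1 farthest above POLR3A, besides TRL-CAA6-1 and RN7SL2, were the region of TRL-CAG1-6 and TRG-TCC2-6 (25.5 and 40.4), that of TRA-CGC1-1 and TRI-AAT5-1 (36.7 and 42.3) and TRK-CTT3-1 (32.7 and 39.2). These 3 regions had H3K27Ac and the 4 genes with low Brf1 did not, but 1 of all 38 tRNA regions with POLR3A folds above 10 and up to 20 had H3K27Ac, against 13 of 36 above 20 and up to 30 and 24 of 45 above 30 and up to 40. In the region of TRL-CAG1-6 and TRG-TCC2-6 the POLR3A summit lay at TRG-TCC2-6 and the Brf1 summit at TRL-CAG1-6. Its POLR3A and Brf1 folds were therefore read at different genes.

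Counted by gene, 359 of 420 tRNA genes had a POLR3A region within 200 bp, 299 of these had Brf1 too (83.3%), 60 had POLR3A alone, and none had Brf1 alone. Every isotype included genes with both proteins. The share was lowest for cysteine, 12 of 21 (57.1%, 36.5 to 75.5), then aspartate, 8 of 12, and leucine, 19 of 28. It was highest for threonine, 20 of 20, and the initiator methionine genes, 8 of 8, followed by glycine, 26 of 27, and alanine, 24 of 25. At 3 of the glycine genes, TRG-TCC2-3, TRG-TCC2-4 and TRG-TCC2-5, the Brf1 region lies over the neighbouring glutamate gene, 122, 197 and 105 bp away, and 23 of 27 glycine genes (85.2%) had Brf1 over the gene itself. The intervals of neighbouring isotypes in this order overlapped. The lower limit of threonine (83.9%) lay above the upper limit of cysteine (75.5%), but these are the ends of a ranked order. Cysteine genes with POLR3A also had the lowest median POLR3A fold of all isotypes, 15.4, against 46.1 for threonine. Aspartate and leucine, with the next lowest shares, had medians of 47.3 and 46.9. Isotypes were not matched in POLR3A fold.

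Copies of a tRNA gene shared 1 state in most families and were split in others. Symbols that differ only after the last dash were taken to name copies of 1 tRNA gene, and 57 such families had at least 2 members. Sequence was not checked for whole families. In some of them, such as TRY-GTA5 and the split family TRI-TAT2, the gene copies differ in length. In 31 of them every copy with POLR3A also had Brf1, 18 were split between copies with and without Brf1, 1 had POLR3A without Brf1, and 7 had no POLR3A. The family TRG-TCC2 is among the 31, though at TRG-TCC2-3, TRG-TCC2-4 and TRG-TCC2-5 Brf1 lay over the neighbouring glutamate gene. A weaker POLR3A region at TRG-TCC2-4 (fold 3.02) had no Brf1. In 18 of the 18 split families every copy with Brf1 had a higher POLR3A fold than every copy without it; the same held for 73.7% of the isotypes that include both kinds. A gene takes the fold of its region, which can have its summit at a neighbouring gene. Without the 17 of 93 copies whose POLR3A summit lay more than 200 bp from the centre of the gene, the order held in 16 of 16 families that were still split. The aspartate family TRD-GTC2 had 6 copies with both proteins, at POLR3A folds of 33.0 to 56.4, and 4 with POLR3A alone, at 2.22 to 3.18. The leucine family TRL-CAG1 had 2 copies with both, at 25.5 and 46.8, and 5 without Brf1, at 2.85 to 3.90. The value of 25.5, at TRL-CAG1-6, is that of a region shared with TRG-TCC2-6, whose POLR3A summit lies at TRG-TCC2-6. The 4 weak TRD-GTC2 copies and the 5 weak TRL-CAG1 copies all lie in the tandem repeat on chromosome 1, where the folds of single copies are uncertain for the same reason. In the proline family shown by sequence, TRP-TGG3-1, TRP-TGG3-2 and TRP-TGG3-3 had POLR3A folds of 58.0, 57.2 and 54.5 with Brf1 folds of 49.6, 37.6 and 43.9, and TRP-TGG3-4 and TRP-TGG3-5 had 13.9 and 9.26 and no Brf1. The asparagine pair had 27.9 for POLR3A and 8.17 for Brf1 at TRN-GTT6-1, and 9.95 for POLR3A at TRN-GTT4-1.

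The summits of both proteins lay at different places on the gene. At 195 regions that hold a single tRNA gene, 1 POLR3A region and 1 Brf1 region, the POLR3A summit fell inside the gene in 191 (97.9%) and the Brf1 summit in 27 (13.8%, 9.69 to 19.4). The median distance from the centre of the gene was 8.5 bp for POLR3A (quartiles 3.5 and 15) and 46.5 bp for Brf1 (40.5 and 51.5), and Brf1 lay farther out in 193 of 195. Strand could be read from the B box at 7 of these genes. There the POLR3A summit lay 28 to 68 bases after the first base of the gene (median 34) and the Brf1 summit from 21 bases before to 13 after it (median -9), and Brf1 was upstream of POLR3A at 7 of 7. Over the 245 type 2 regions with 1 region of each protein the summits were 50 bp apart (median, 95% order-statistic interval 47 to 52), and 225 pairs lay within 100 bp. At 5S genes the median distance between summits was 72 bp.

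**Figure D5:**
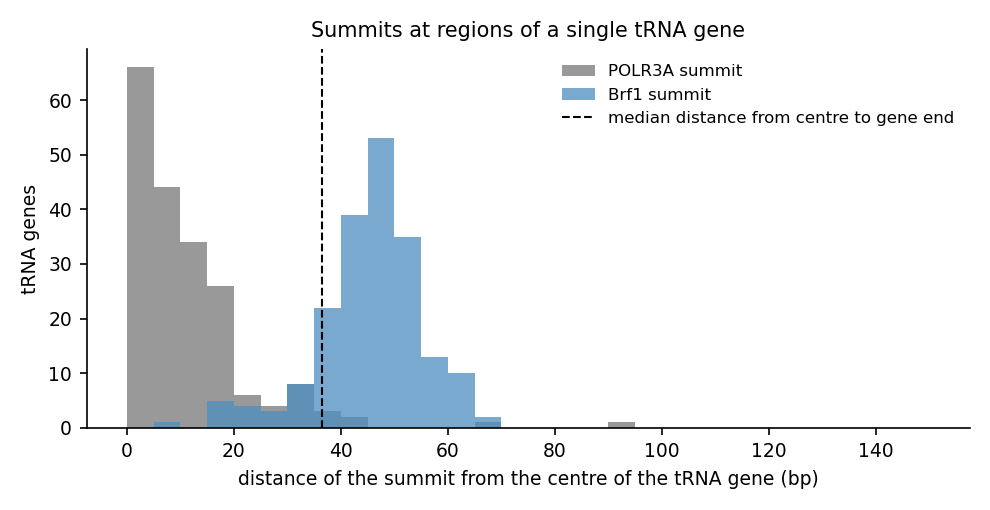
Distance in bp of the POLR3A and Brf1 summits from the centre of the gene at 195 regions of a single tRNA gene, in 5 bp bins; bars count genes and the dashed line marks the median distance from the centre to the end of the gene. The POLR3A summits lie mostly inside the gene (median 8.5 bp), the Brf1 summits mostly just outside it (median 46.5 bp).

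tRNA regions with and without Brf1 also differed in H3K27Ac, POLR3G and POLR3C. H3K27Ac was present at 125 of 243 with Brf1 (51.4%) and at 1 of 60 without (1.67%), a difference of 49.8 points (40.2 to 56.1). POLR3G was present at 160 of 243 and 1 of 60, a difference of 64.2 points (54.7 to 70.0), and POLR3C at 79 of 243 and 0 of 60, 32.5 points (24.3 to 38.6). Maf1 was present at 14 of 243 and 0 of 60 (7.41% of all POLR3A regions), and PR at 9 of 243 and 0 of 60 (10.9%); both intervals of the difference included 0 (-0.68 to 9.44 and -2.56 to 6.89 points). The share of tRNA regions with H3K27Ac rose with the POLR3A fold as well. Within POLR3A folds above 10 and up to 20, H3K27Ac was present at 0 of 22 regions with Brf1 and at 1 of 16 without. The difference was -6.25 points (-28.3 to 9.48). Even in this range the regions with Brf1 mostly had the higher POLR3A folds, so the groups were not matched in strength. In the same range POLR3G was present at 2 of 22 and 0 of 16 (9.09 points, -11.4 to 27.8), and POLR3C, Maf1 and PR at 0 of 22 and 0 of 16.

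After R5020 most tRNA regions kept their state. The R5020 lists had POLR3A at 243 of 243 tRNA regions with vehicle Brf1 and at 53 of 60 without (83.3% of all POLR3A regions), and Brf1 at 239 of 243 and at 13 of 60 (64.7%). Within POLR3A folds above 10 and up to 20, R5020 Brf1 was present at 18 of 22 regions with vehicle Brf1 and at 7 of 16 without. The difference was 38.1 points (7.31 to 61.4), between groups that were not matched in strength within this range. PR, the receptor that R5020 activates, was present with R5020 at 97 of 243 regions with Brf1 and at 0 of 60 without (30.4% of all POLR3A regions), and Maf1 at 78 of 243 and 0 of 60 (24.9%). Within POLR3A folds above 10 and up to 20, PR was present with R5020 at 2 of 22 and 0 of 16 (9.09 points, -11.4 to 27.8) and Maf1 at 0 of 22 and 0 of 16. Of the 13 type 3 regions without Brf1, 12 had PR with R5020 and 5 had Maf1. The R5020 lists are longer than the vehicle lists for Brf1 (1157 against 370 regions), POLR3A (1019 against 688), PR (173115 against 6662) and Maf1 (22638 against 3048). The part of list length in these counts was not tested.

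Relatives of polymerase III genes followed a mixed pattern, with Brf1 at 25 of 60 regions (41.7%, 30.1 to 54.3). The SNAR genes, small RNA genes that lie mostly in arrays on chromosome 19, had Brf1 at 18 of 19 regions. Pseudogenes of 5S RNA had it at 5 of 20, and tRNA pseudogenes at 2 of 7. Pseudogenes of U6 and U6atac RNA (POLR3A folds 4.48 to 7.59) had it at 0 of 8, those of 7SK RNA (6.69 to 22.0) at 0 of 4, and those of 7SL RNA (18.4 and 37.2) at 0 of 2. The SNAR regions had a median POLR3A fold of 23.7 and a median Brf1 fold of 17.8. They supply 18 of the 25 regions with Brf1 in this class. As in the 5S array, the folds of single copies are uncertain.

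Of the 287 POLR3A regions without a listed gene, 232 had no Brf1, and most of these were weak, with a median POLR3A fold of 4.47 against 13.7 for the 55 with Brf1. Fewer of them were found again with R5020, 135 of 232 (58.2%) against 50 of 55 (90.9%). H3K27Ac did not separate the groups, with 103 of 232 (44.4%) and 23 of 55 (41.8%), a difference of -2.58 points (-16.3 to 12.0). The strongest by -log10 q without Brf1 was chr5:172303799-172304243, with no gene over it and a fold of 43.3. It was followed by chr1:219528273-219528687 in LYPLAL1-AS1 (27.5), chr4:118969283-118969611 in SYNPO2 (27.4), chr12:76455406-76455794 in OSBPL8 (20.6) and chr1:228557986-228558451 with no gene over it (14.7). These 5 had POLR3A with R5020 too, and 1 of them, the last, had R5020 Brf1.

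Some regions without a listed gene had both proteins at the level of tRNA genes. The strongest, named after their values were seen, were chrX:47802382-47803086 (POLR3A 58.0, Brf1 42.8), chr16:22298047-22298907 in POLR3E, the gene of another polymerase III subunit (56.9 and 37.8), and chr4:87363530-87364033 in HSD17B11 (49.3 and 20.7). The next, chr1:145160831-145161497 (48.3 and 33.7), overlaps TRNAV-CAC, a tRNA gene without a numbered symbol that the gene list therefore leaves out. The POLR3A region of TRL-AAG2-4, a gene that shared the highest Brf1 fold with another tRNA gene, also overlaps POLR3E.

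Brf1 without POLR3A was rare and weak. The 25 regions had a median Brf1 fold of 3.64, against 20.4 for the 345 with POLR3A, and no listed polymerase III gene or pseudogene lay at any of them. All 266 Brf1 regions at listed genes and all 25 at pseudogenes or SNAR genes had POLR3A (93.2% of all Brf1 regions), against 54 of 79 elsewhere. Within 1 kb of 13 of the 25 lay the start or end of a protein-coding gene (52%, 33.5 to 70.0), against 17.8% of all Brf1 regions. H3K27Ac was present at 20 of 25 (80%, 60.9 to 91.1) against 22 of 54 Brf1 regions with POLR3A and no listed gene (40.7%), and 50.5% of all Brf1 regions. Maf1 was present at 18 of 25 (72%) against 9 of 54 (12.2% of all Brf1 regions), and PR at 18 of 25 against 16 of 54 (14.1%). In the R5020 lists 20 of 25 had Brf1 again (96.2% of all Brf1 regions) and 1 of 25 had POLR3A (91.6%). The one with the highest -log10 q lay in LYNX1, chr8:142777222-142777559, with a fold of 8.41, and the others ranged from 1.77 to 5.64. Regions at POLR2A, the gene of the largest subunit of RNA polymerase II (3.82), and SIRT1 (2.50) were among them, named after their values were seen.

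The H3K27Ac list was used to check the cell type. A region lay within 1 kb of an end of 9 of 9 luminal breast genes and of 1 of 6 genes of other cell types, COL1A1. The list holds 88869 regions, and the share of all genes with such a region was not counted, so the check is weak.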

How the data were processed

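Members and gene lists were chosen with earlier results of these data known. ChIP-seq peak lists, 1 for each antibody and treatment, stand for 3 libraries each; how the libraries were combined is not given in the sources used here. Per the submitters' processing notes, cutadapt, Bowtie2, MACS2 and hg38 were used, with no settings. Each deposited row gives a region with its fold enrichment (a ratio), its -log10 q-value and its summit position. These served only to describe, rank and filter regions within 1 list. Peak lists hold no read counts, so depth is unknown; no column was left unmapped. Treatment labels of the POLR3C, POLR3G and POLR3GL libraries with R5020 conflict in part, and those lists were not used.

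Rows of chromosomes 1 to 22 and X were kept. A region took the promoter type of a gene within 200 bp, from RefSeq genes of GRCh38.p14, listed without strand; 420 numbered tRNA genes, 17 of type 1, 8 other genes of type 2 and 14 of type 3 were listed. The summit distance is unsigned for want of strand. Named regions are all genes of types 1 and 3 and the other type 2 genes, and the 5 at the top of each stated ranking; of the 5 Brf1 regions alone of highest -log10 q, 1 is named and the rest are given as a range. Shares carry 95% Wilson intervals and differences Newcombe intervals. The overlap code was tested on simulated data. The work used Python 3.11.15, numpy 2.4.6, pandas 2.3.3, scipy 1.17.1 and matplotlib 3.10.9. Alternatives were stricter -log10 q or fold minimums, summits within 250 bp, 50% shared length, lists of equal length, and other gene distances.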

Additional observations from a re-analysis of the deposited data

Results flagged for a closer look

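Rows outside chromosomes 1 to 22 and X, which no comparison above uses, numbered 39 for POLR3A, and 10 of them overlapped a Brf1 row (25.6%, Wilson interval 14.6 to 41.1). A count of 0 would allow a share of up to 7.69% by the rule of 3 (3 divided by 39), which is not a Wilson limit. Of 13 Brf1 rows there, 9 overlapped POLR3A, and none lay on chromosome Y. The median POLR3A fold was 4.06 with Brf1 and 3.60 without.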

How the results depend on the processing

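Type 2 regions exceeded type 3 regions in Brf1 by 67.7 to 87.9 points under each alternative minimum, overlap, list length or gene distance, and by 92.4 points at or above the lowest type 3 fold. With a -log10 q of at least 5, POLR3A was found at 96.8% of Brf1 regions. With a fold of at least 5, 61.1% of POLR3A regions had Brf1 and 99.4% of Brf1 regions had POLR3A. Summits within 250 bp gave POLR3A at 88.9% of Brf1 regions, Brf1 at 74.8% of type 2 regions, and a difference in H3K27Ac of 23.2 points between tRNA regions with and without Brf1. With 50% of both regions shared, Brf1 fell to 44.6% of all POLR3A regions, 73.5% at type 2, 0% at type 3 and 13.2% without a listed gene, and POLR3A to 83.0% of Brf1 regions. With the POLR3A list reduced to the 370 regions of highest -log10 q, the shares were 86.8% of POLR3A regions, 86.2% of Brf1 regions, 95.04% at type 2 and 72.7% without a listed gene, and the gap in median POLR3A percentile between tRNA regions with and without Brf1 was 27.5 against 37.6. Alternatives chosen after seeing the data kept regions at or above the lowest type 3 fold, with Brf1 at 99.5% of type 2 regions and 80.0% without a listed gene, and tRNA regions of POLR3A fold above 10 and up to 20, where the H3K27Ac difference was -6.25 points. Others chosen then were the family order over copies with their own summit, glycine genes with Brf1 over the gene, and regions outside the ribosomal and SNAR arrays, with Brf1 at 49.8% of all and 17.4% of regions without a listed gene. The cause of these shifts was not tested, beyond the fewer regions kept. No paired analysis was possible because each antibody has 1 list without replicate numbers. Unknown depth limits what a missing region means.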
